A study of Mus musculus with 10 samples.

Results

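Long intergenic noncoding RNA (lincRNA) genes of the autosomes that were transcribed in the somatosensory cortex of adult mice are described here across 2 models of Nsd1 deletion. They were taken from the 3-month table as genes of biotype lincRNA on chromosomes 1 to 19 with a mean of at least 0.3 FPKM (fragments per kilobase of transcript, scaled to the mapped fragments of the library) over its 4 libraries, leaving out a few imprinted and separately studied lincRNAs by name. Of 5559 lincRNA genes there, 4915 were autosomal, 515 reached the floor, 2 of these (Meg3 and Mirg) were among the names left out, and 513 remained, 10.4% of the autosomal lincRNA genes. The 2.5-month table had a row of its own for 119 of the 513 names, 27 more stood there only in a row that joins several neighbouring genes, and 367 were not found in it. Because the floor used the mean of all 4 libraries of the 3-month table, the genes were chosen by their measured level, and levels in that table are descriptions. The floor was not set on the difference between the groups, but 65 genes with a control mean under 0.3 FPKM reached it only through their cKO values, and 29 with a cKO mean under 0.3 FPKM only through their control values. The choice used no value of the 2.5-month table.

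LincRNA genes are transcribed by RNA polymerase II, spliced and polyadenylated much like messenger RNAs but encode no known protein, lie outside coding genes by annotation, and are as a class lowly transcribed and often restricted to a few tissues. A minority have a worked-out role, as scaffolds in the nucleus, as decoys for proteins or microRNAs, or as precursors of small RNAs, and most of the genes below carry only a clone or model name. NSD1 methylates histone H3 at lysine 36, a mark of transcribed and intergenic chromatin that recruits a de novo DNA methyltransferase and opposes Polycomb methylation of lysine 27.

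The title of the series puts the question of what NSD1 and the histone mark it makes do for neuronal identity, as it is set up and as it is kept. RNA was taken from somatosensory cortex of control mice and of mice with a conditional knockout (cKO) of Nsd1. At 2.5 months there were 3 control libraries (Nex_Ctrl; genotype Nsd1fl/+ in replicates 1 and 2 and Nsd1fl/fl in replicate 3) and 3 libraries of genotype Nsd1Nex-cKO (Nex_cKO), in which Cre from the Neurod6 (Nex) locus acts in excitatory neurons soon after their last division. At 3 months there were 2 control libraries (Camk2a_Ctrl, Nsd1fl/+) and 2 of genotype Nsd1Camk2a-cKO (Camk2a_cKO), with Cre driven by Camk2a in maturing excitatory neurons. Neither driver acts in most other cells of the cortex. The labels do not say whether controls carried Cre or whether each library came from its own mouse, so p-values measure the spread between these samples. In whole tissue, fewer cells of a type and less RNA per cell cannot be told apart.

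Among the 2.5-month libraries Nex_cKO replicate 3 differed from the rest. It had Xist at 0.00350 FPKM and the Y-linked Ddx3y at 16.2 FPKM, as the 4 Camk2a libraries did (Ddx3y at 10.98 to 12.4 FPKM), whereas Ddx3y was listed at 0 in the other 5 libraries of the Nex model. Rows without a gene name held 41.6% of its summed FPKM and 2.33% to 19.4% of the others. The 3-month values came from 16901717 to 20074933 recovered reads per library, of which 0.448% to 0.493% fell in the 513 genes, and the depth of the 2.5-month values is unknown. The mRNA of Nsd1 was read beside the labels. It had 5.61 and 8.87 FPKM in Camk2a_Ctrl and 4.31 and 4.99 FPKM in Camk2a_cKO (limma, log2 change -0.60, adjusted p = 0.726). In the 2.5-month table it was joined with its neighbour Prelid1 (limma, log2 change -0.34, adjusted p = 0.0874). Neither passed the threshold, so these values do not settle whether the labels are right.

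The start regions of 4 lincRNA genes that rose in Nex_cKO cortex, and of the gene that fell most, are shown. These 5 are among the 11 genes whose calls passed in every setting tried. The windows were picked because they differ in CpG content, the sequence that DNA methylation acts on, so their contrast is not a result. The windows of A630023P12Rik (1 CpG) and 1700007F19Rik (9 CpG), which rose and whose calls also passed throughout, are not shown. Each runs 5′ to 3′ from 250 bases before to 50 bases after the RefSeq start (GRCm38.p6), with each CpG in capitals. The windows are those of Gm10754 (chr10:97967041-97967340, minus strand), Gm14015 (chr2:106523054-106523353, minus strand), Gm17751 (chr1:76488883-76489182, plus strand), Gm16702 (chr17:8389419-8389718, minus strand) and 4833412C05Rik (chr7:67803447-67803746, minus strand).
Gm10754: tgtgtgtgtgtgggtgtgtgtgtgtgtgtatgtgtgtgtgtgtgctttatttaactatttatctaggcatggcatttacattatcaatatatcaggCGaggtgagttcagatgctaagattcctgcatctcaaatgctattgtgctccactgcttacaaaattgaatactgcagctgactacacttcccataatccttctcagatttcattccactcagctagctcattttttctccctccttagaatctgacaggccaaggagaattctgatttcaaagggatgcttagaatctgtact
Gm14015: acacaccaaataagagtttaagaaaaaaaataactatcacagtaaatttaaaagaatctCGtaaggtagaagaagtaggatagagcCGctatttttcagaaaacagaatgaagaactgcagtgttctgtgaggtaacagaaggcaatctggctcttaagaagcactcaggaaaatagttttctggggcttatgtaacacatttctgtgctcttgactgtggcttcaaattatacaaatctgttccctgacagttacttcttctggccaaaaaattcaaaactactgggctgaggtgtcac
Gm17751: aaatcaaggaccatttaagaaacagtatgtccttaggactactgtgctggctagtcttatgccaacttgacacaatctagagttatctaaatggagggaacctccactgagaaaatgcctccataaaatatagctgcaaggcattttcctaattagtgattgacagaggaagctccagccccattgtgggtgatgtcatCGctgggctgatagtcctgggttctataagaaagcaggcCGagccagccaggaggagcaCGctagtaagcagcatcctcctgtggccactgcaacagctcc
Gm16702: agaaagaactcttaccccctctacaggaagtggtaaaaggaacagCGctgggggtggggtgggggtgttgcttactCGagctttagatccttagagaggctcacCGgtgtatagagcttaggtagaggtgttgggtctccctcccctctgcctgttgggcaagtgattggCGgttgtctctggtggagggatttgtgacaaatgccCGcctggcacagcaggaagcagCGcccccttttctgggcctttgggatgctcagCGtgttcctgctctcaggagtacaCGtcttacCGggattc
4833412C05Rik: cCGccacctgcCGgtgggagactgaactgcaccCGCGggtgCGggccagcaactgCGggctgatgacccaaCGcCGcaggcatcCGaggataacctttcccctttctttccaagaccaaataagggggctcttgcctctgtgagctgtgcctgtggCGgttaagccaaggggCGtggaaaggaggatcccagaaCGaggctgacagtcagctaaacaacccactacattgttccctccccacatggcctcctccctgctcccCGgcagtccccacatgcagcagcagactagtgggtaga
The first 4 windows start from the same base as the gene in the deposited table, and that of 4833412C05Rik from a RefSeq start 643 bases away. They hold 1, 2, 3, 9 and 13 CpG in the order shown.

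Most of the 513 genes were transcribed at a low level. The median of their mean FPKM at 3 months was 0.758 (quartiles 0.465 and 1.65), against 5.25 for the 13346 protein-coding genes over the same floor. Of the 513, 149 were under 0.5 FPKM, 201 reached 1 FPKM and 17 reached 10 FPKM. The median gene had 85 recovered reads summed over the 4 libraries, the lowest had 2, and 134 averaged under 10 reads per library, so the differences of these genes carry a large counting error. At the floor itself, D830044D21Rik (0.301 FPKM) and 5930430L01Rik (0.3004 FPKM) were the last inside, and Gm35725 (0.299974 FPKM) and Gm46515 (0.299 FPKM) the first outside.

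A few transcripts carried much of the signal: the first 3 genes held 38.1% of the summed mean FPKM of the 513. The highest was 2900097C17Rik (chromosome 2, 156388065 to 156392979), the mouse Norad, a cytoplasmic RNA that binds Pumilio proteins, with 317.8 and 319.9 FPKM in Camk2a_Ctrl and 284.005 and 334.6 FPKM in Camk2a_cKO. In the Nex model it had 258, 265 and 271 FPKM in controls and 255, 247 and 236 FPKM in cKO libraries (log2 change -0.11, adjusted p = 0.46). The Nex groups did not overlap, but the difference did not pass the threshold. 6330403K07Rik had 118.7 FPKM on average at 3 months and ranged from 110.6 to 128.7 FPKM. The third, 1700020I14Rik, the mouse Cyrano, which pairs with and destabilises miR-7, had 72, 67 and 74 FPKM in Nex_Ctrl and 80.2, 75.1 and 89.8 FPKM in Nex_cKO (log2 change 0.20, adjusted p = 0.192). At 3 months the same gene had 112.5 and 102.7 FPKM in controls and 89.1 and 103.6 FPKM in cKO libraries, so that its small difference had the opposite sign there.

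The next genes were Tmem250-ps (32.1 FPKM), Gm10076 (21.7 FPKM), Malat1, B230209E15Rik and Gm20300. Gm10076, a model of only 384 bases, was the least even: 5.30 and 35.6 FPKM in Camk2a_Ctrl and 27.6 and 18.4 FPKM in Camk2a_cKO, from 35, 270, 189 and 119 reads. B230209E15Rik had 20.1 and 21.02 FPKM in Camk2a_Ctrl and 14.3 and 17.3 FPKM in Camk2a_cKO, and 23.0, 23.4 and 24.1 FPKM in Nex_Ctrl against 20.1, 19.997 and 22.4 FPKM in Nex_cKO. Its groups did not overlap in either model, and it passed in neither (adjusted p = 0.653 and 0.209). Gm20300 likewise lay lower in both Camk2a_cKO libraries (15.4 and 15.0 FPKM) than in both controls (18.8 and 18.2 FPKM; adjusted p = 0.669). Gene models were not the same at both ages, and over the 119 genes with a row in both the rank correlation of mean levels was 0.587 (Spearman), so levels are compared only within a table.

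**Figure D1:**
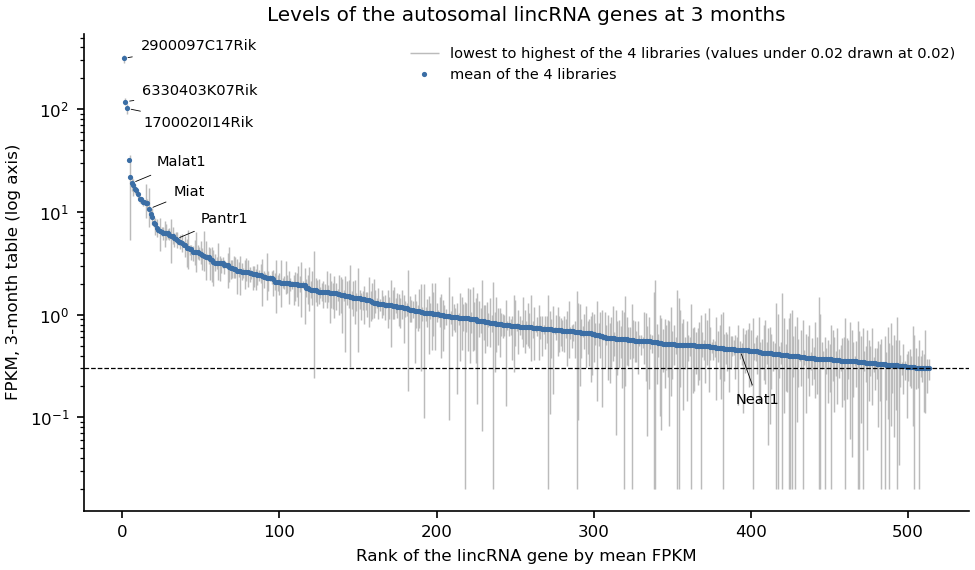
Mean FPKM (log axis) of the 513 autosomal lincRNA genes in the 3-month table against their rank, with a grey line from the lowest to the highest of the 4 libraries and a dashed line at the floor of 0.3 FPKM. The first 3 genes stand above 100 FPKM, and the spread between libraries widens toward the floor.

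In Nex_cKO cortex 17 of the 104 tested lincRNA genes rose and 4 fell. Most that rose had a low level in control cortex: 12 of the 17 had a control mean under 1 FPKM and 3 under 0.3 FPKM, the median of the 17 went from 0.695 FPKM in Nex_Ctrl to 3.46 FPKM in Nex_cKO, and 10 had a log2 change above 2. The largest changes were those of Gm1715, 2410004I01Rik, Gm10754, Gm14015, Bvht, Gm19705, D6Ertd474e and 4833415N18Rik, in that order. Gm10754, 2410004I01Rik, Gm14015, Gm19705 and 4833415N18Rik were 5.97-fold to 10.4-fold higher by the ratio of the group means. 4833412C05Rik and Gm10635 fell to a fraction of their control level.

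These calls came from limma on log2(FPKM + 0.1), with Benjamini-Hochberg adjusted p under 0.05 over all 14086 genes and joined rows of mean FPKM at or above 0.3. Over all of them 4.98% rose and 3.71% fell. The share of lincRNA genes was 16.3% higher and 3.85% lower, with a median log2 change of 0.10 over the 104 against -0.04 over all genes. A large share of rises was common to genes of low level. Of 1595 protein-coding genes within the middle range (between the quartiles) of the lincRNA levels, 183 (11.5%) rose and 31 (1.94%) fell, with a median of 0.09. Among the 39 lincRNA genes within it 6 (15.4%) rose and 2 (5.13%) fell, with a median of 0.22. Of 122 processed transcripts 15 (12.3%) rose, and of 144 antisense genes 10 (6.94%). No test of lincRNA genes against these classes was made. The remaining 15 of the 119 genes lay under the filter, and 5 tested genes with a control mean under 0.3 FPKM passed it through their cKO values, and 1 through its control values. Of the 98 genes with a mean of at least 0.3 FPKM in both groups 14 rose and 3 fell, beside 488 and 507 of 13636 among all genes.

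The cKO and control values of all 21 called genes did not overlap. Of the 104 genes, 28 lay above the controls in all 3 cKO libraries and 11 below, 26.9% and 10.6%, where all genes gave 12.4% and 17.8%. At an unadjusted p under 0.05 there were 24 and 9, where all genes gave 9.7% and 13.7%. The number that rose was 10 without Nex_Ctrl replicate 1 and 11 without Nex_Ctrl replicate 2. The number that fell was 2 without Nex_Ctrl replicate 1, without Nex_Ctrl replicate 2 or without Nex_cKO replicate 1. Without Nex_cKO replicate 3, which stood apart, 15 rose and 4 fell.

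**Figure D2:**
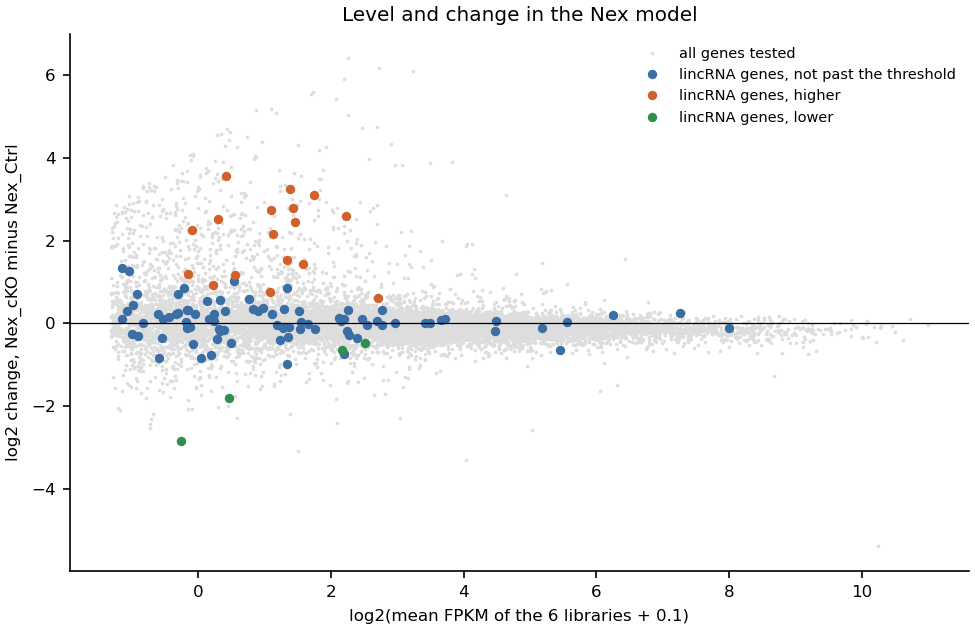
Log2 change between Nex_cKO and Nex_Ctrl against the log2 of the mean FPKM plus 0.1 over the 6 libraries, for all 14086 genes tested (grey) and the 104 lincRNA genes (coloured by call). The 17 higher lincRNA genes reach a log2 change of 3.56 and lie at low to middling levels, where many other genes also lie far above 0.

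Gm10754 (ENSMUSG00000074776, chromosome 10, 97681414 to 97967090, minus strand), which overlaps the coding gene C030005K15Rik on the same strand, had 0.653, 0.58 and 0.546 FPKM in the 3 Nex_Ctrl libraries and 4.65, 5.31 and 7.81 FPKM in the 3 Nex_cKO libraries. Every cKO value lay far above every control value. The mean went from 0.593 ± 0.0546 to 5.93 ± 1.67 FPKM (SD, n = 3 each), a log2 change of 3.09 (SE 0.21, adjusted p = 7.87e-05). Reads of the shared stretch cannot be assigned to Gm10754 or C030005K15Rik, and since the files do not state whether reads were counted by strand, the same holds for Gm16702 and A330074K22Rik below, which overlap coding genes on the other strand.

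Gm14015 (chromosome 2, 106463823 to 106523103, minus strand) lies 170166 bases from its nearest coding gene, Mpped2. It had 0.808, 0.585 and 0.398 FPKM in controls and 4.53, 4.34 and 4.93 FPKM in cKO libraries (log2 change 2.79, SE 0.23, adjusted p = 0.000176). The groups did not overlap, and the cKO libraries were close to each other.

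4833415N18Rik (chromosome 16, 11778429 to 11781500, plus strand) had 0.553, 0.879 and 0.851 FPKM in controls and 4.40, 4.52 and 4.71 FPKM in cKO libraries (log2 change 2.45, SE 0.19, adjusted p = 0.000141). D6Ertd474e (chromosome 6, 143245888 to 143297272, plus strand) had 0.307, 0.231 and 0.258 FPKM in controls and 2.21, 1.77 and 1.99 FPKM in cKO libraries (log2 change 2.52, SE 0.22, adjusted p = 0.000246). The 2.5-month table has a second row named D6Ertd474e, with 1.80, 0.860 and 1.01 FPKM in controls and 0.444, 0.841 and 0.366 FPKM in cKO libraries, and this row lay lower in cKO libraries without overlap. With the rows summed D6Ertd474e went from 1.49 to 2.54 FPKM (log2 change 0.79, adjusted p = 0.0776), so that its call and most of its change rest on the row of higher mean. Of the 119 genes 16 have such a second row, 3 of the 21 called among them, and summing rows, an alternative chosen after the values were seen, gave 18 that rose and 4 that fell. 2410004I01Rik (chromosome 11, 102958300 to 102964387, minus strand) was more variable in controls, with 0.429, 0.722 and 0.171 FPKM, and had 4.05, 5.31 and 4.34 FPKM in cKO libraries (log2 change 3.24, SE 0.37, adjusted p = 0.000876). Gm19705 (chromosome 1, 136670769 to 136690804, plus strand) reached the highest level of the 17 in a single cKO library, with 0.773, 1.79 and 1.26 FPKM in controls against 10.2, 6.80 and 6.76 FPKM (log2 change 2.59, SE 0.28, adjusted p = 0.00073). The cKO values of 4833415N18Rik, 2410004I01Rik and Gm19705 all lay above the controls.

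Bvht and Gm1715 had large but uneven changes. Bvht (Braveheart; chromosome 18, 61639542 to 61647472, plus strand) is known as a lincRNA needed for cardiac commitment of mouse stem cells. It had 0.162, 0.225 and 1.44 FPKM in controls and 4.23, 4.04 and 2.08 FPKM in cKO libraries (log2 change 2.74, SE 0.62, adjusted p = 0.0289). The ratio of its group means was 5.65, and 17.8 without Nex_Ctrl replicate 3. Nex_Ctrl replicate 3 lay only a little under Nex_cKO replicate 3, and the call was lost when Nex_Ctrl replicate 1 or 2 (adjusted p = 0.098 and 0.102) or Nex_cKO replicate 1 or 2 (adjusted p = 0.105 and 0.0646) was left out. Gm1715 (chromosome 9, 52679863 to 52798774, plus strand) was listed at 0 in Nex_Ctrl replicates 1 and 2, at 0.360 FPKM in replicate 3, and had 0.609, 2.58 and 3.88 FPKM in cKO libraries (log2 change 3.56, SE 0.76, adjusted p = 0.0233). Its control mean rests on 1 library, and no ratio is given. Its call was lost without either control library at 0 (adjusted p = 0.0883 and 0.0835) and without Nex_cKO replicate 2 or 3 (adjusted p = 0.0575 and 0.0592). With no intensity trend in the fit neither gene passed (adjusted p = 0.0795 for Bvht and 0.0656 for Gm1715).

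The other 9 genes that rose changed by 0.61 to 2.26 on the log2 scale and are named after their values were seen. Gm17751, 865157 bases from its nearest coding gene Epha4, had 0.191, 0.184 and 0.302 FPKM in controls and 1.46, 1.52 and 1.34 FPKM in cKO libraries (adjusted p = 0.000873). Gm16702, which overlaps Sft2d1 on the other strand, had 0.841, 0.508 and 0.738 FPKM in controls and 3.46, 2.71 and 4.22 FPKM in cKO libraries (adjusted p = 0.000716). Neither pair of groups overlapped. 1700007F19Rik had 0.989, 1.16 and 1.43 FPKM in controls and 3.26, 3.10 and 4.53 FPKM in cKO libraries (adjusted p = 0.00224). Its second row had 1.59, 0.434 and 0.796 FPKM in controls and 0.303, 0.808 and 0.499 FPKM in cKO libraries, which overlap, and with the rows summed the ratio of the group means was 1.95 in place of 3.05 (adjusted p = 0.0242). A630023P12Rik had 1.24, 1.51 and 1.79 FPKM in controls and 3.84, 5.06 and 3.87 FPKM in cKO libraries (adjusted p = 0.00173). These 4 were called in every setting tried, whereas Gm10451, AU023762, Gm38413, A330074K22Rik and AI504432 had adjusted p between 0.0174 and 0.0425 and depended on single libraries. AU023762 lost the call without any 1 control library (adjusted p from 0.055 to 0.0676), and AI504432 also without Nex_cKO replicate 1 (0.0751 to 0.0974). Gm10451 lost it without any 1 library other than Nex_cKO replicate 3 (0.0692 to 0.118), A330074K22Rik without any other than Nex_Ctrl replicate 2 (0.055 to 0.144), and Gm38413 without any of the 6 (0.0567 to 0.125). With quantile normalization Gm10451, A330074K22Rik and Gm38413 lost it (0.0936, 0.101 and 0.115), as did A330074K22Rik with no filter (0.0637) and AI504432 with no trend (0.0562). AI504432, the most abundant of the 17 in controls, went from 5.05 to 7.81 FPKM.

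4833412C05Rik (chromosome 7, 67784538 to 67804139, minus strand) had the largest fall by log2 change, with 1.32, 1.39 and 1.29 FPKM in controls and 0.245, 0 and 0.133 FPKM in cKO libraries (log2 change -2.84, SE 0.44, adjusted p = 0.0051). It was near 0 in all 3 cKO libraries. Gm10635 (chromosome 9, 79444037 to 79519302, minus strand) had 2.08, 1.90 and 2.08 FPKM in controls and 0.325, 0.709 and 0.548 FPKM in cKO libraries (log2 change -1.81, SE 0.26, adjusted p = 0.00351). Both calls passed in every setting tried.

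B230217O12Rik (chromosome 19, 57323385 to 57360775, minus strand) lies 234 bases from Fam160b1 on the other strand and had 5.95, 5.74 and 4.40 FPKM in controls and 3.07, 3.22 and 3.89 FPKM in cKO libraries (log2 change -0.64, SE 0.15, adjusted p = 0.0371). Its lowest control value was close to its highest cKO value, and its call was lost without Nex_Ctrl replicate 1 or 2 or Nex_cKO replicate 1 or 2 (adjusted p = 0.142, 0.136, 0.124 and 0.0738), and also with no filter, with median ratio rescaling and with no trend (0.0512, 0.0547 and 0.0649). Gm16701 (chromosome 1, 166998295 to 167000841, minus strand) had 7.21, 6.12 and 6.35 FPKM in controls and 4.42, 4.61 and 4.97 FPKM in cKO libraries (log2 change -0.48, SE 0.11, adjusted p = 0.0304). It lost the call without any 1 library other than Nex_cKO replicate 3 (adjusted p from 0.0597 to 0.123).

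**Figure D3:**
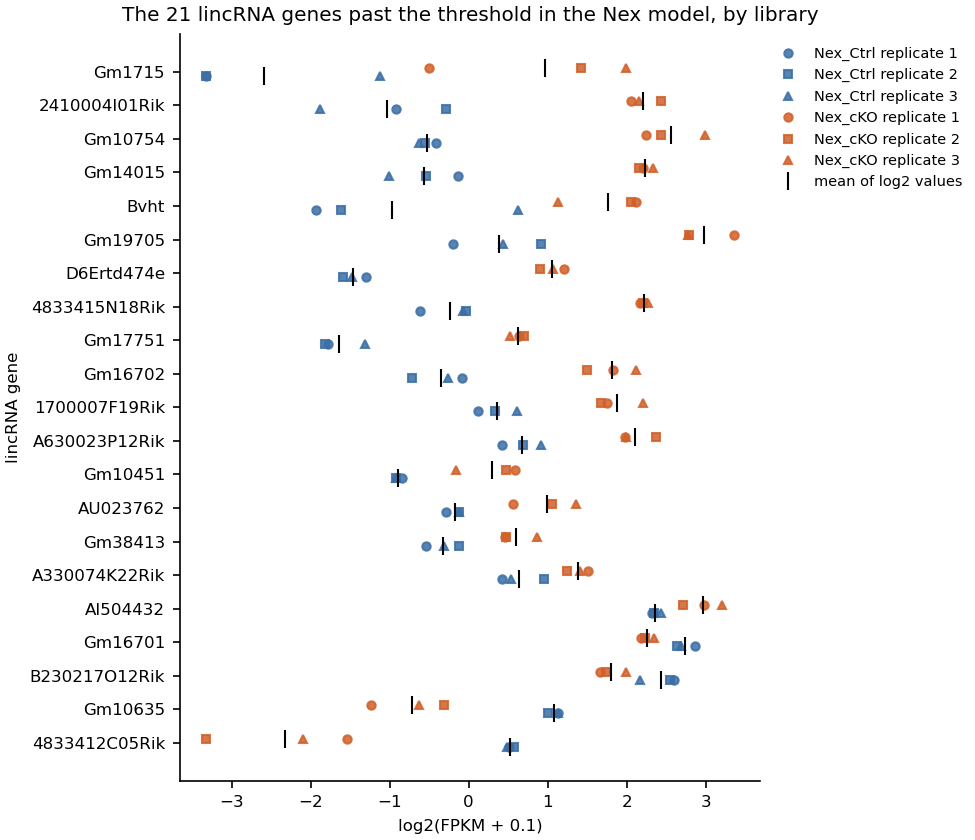
log2(FPKM + 0.1) of the 21 lincRNA genes past the threshold in the Nex model, one point per library (blue Nex_Ctrl, orange Nex_cKO, shape by replicate) with a bar at each group mean, ordered by log2 change from 3.56 at the top to -2.84 at the bottom. The orange and blue points do not overlap in any row, and those of Bvht and Gm1715 are widely spread within a group.

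Of the 27 lincRNA genes that the 2.5-month table joins with a neighbour, 4 joined rows rose and 1 fell, where 4.98% of all genes and joined rows rose and 3.71% fell, and the table does not say which of the joined genes changed. They are Gm20187/Gm9866, 4933412O06Rik/A530046M15Rik, 1700110C19Rik/Cahm, Gm5/Zar1l and, falling, Gm16386/Zfp945, named after their values were seen. 4933412O06Rik/A530046M15Rik had 1.62, 2.27 and 2.004 FPKM in controls and 4.23, 3.20 and 5.02 FPKM in cKO libraries (log2 change 1.03, adjusted p = 0.0139, and 0.0558 and 0.0583 without Nex_Ctrl replicate 1 and Nex_cKO replicate 1). Gm5/Zar1l lost the call without any 1 of the 6 libraries (adjusted p from 0.0548 to 0.145), Gm16386/Zfp945 without any other than Nex_cKO replicate 3 (0.0642 to 0.14), 1700110C19Rik/Cahm without any other than Nex_cKO replicate 2 (0.0555 to 0.11), and Gm20187/Gm9866 without any other than Nex_Ctrl replicate 2 and Nex_cKO replicate 3 (0.0596 to 0.0868). Each of these 4 also lost it under 1 or more of the other settings (no filter, median ratio rescaling, quantile normalization or no trend; adjusted p up to 0.133). Pantr1/Pou3f3, which joins a lincRNA of neural progenitors with the transcription factor gene beside it, had 62.7, 56.6 and 69.0 FPKM in controls and 48.2, 55.8 and 51.2 FPKM in cKO libraries. The groups did not overlap, and the adjusted p was 0.114.

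A further 6 joined rows hold lincRNA genes that also have a row of their own, and 1 of them fell. This row, Mir124a-1/Mir124a-1hg/Mir3078, which covers a host transcript of the neuronal microRNA miR-124, had 75.5, 71.9 and 65.4 FPKM in controls and 41.4, 45.3 and 50.5 FPKM in cKO libraries. It fell in all 3 cKO libraries (log2 change -0.63, SE 0.09, adjusted p = 0.00365), and the call passed in every setting tried. A separate row for Mir124a-1hg alone had 4.67, 6.36 and 5.27 FPKM in controls and 2.89, 5.57 and 1.97 FPKM in cKO libraries, with overlapping groups (log2 change -0.75, adjusted p = 0.204). At 3 months Mir124a-1hg had 12.5 and 9.34 FPKM in Camk2a_Ctrl and 18.6 and 8.70 FPKM in Camk2a_cKO (log2 change 0.23, adjusted p = 0.929). The mature microRNA was not measured. Snhg6, host of a small nucleolar RNA, had 65.3, 45.9 and 48.1 FPKM in Nex_Ctrl and 31.3, 44.2 and 27.1 FPKM in Nex_cKO, which did not overlap but missed the threshold (log2 change -0.65, adjusted p = 0.0749).

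Of the small RNA hosts with a row of their own, 13 were tested in the Nex model, and 1 rose: Ptprv, a processed transcript and not a lincRNA, from 0.19 to 0.738 FPKM (adjusted p = 0.0139, and 0.0589 with quantile normalization). Their median log2 change was -0.18. Among the lincRNA hosts, Snhg20 had 33.3, 39.3 and 39.8 FPKM in Nex_Ctrl and 34.2, 40.8 and 29.98 FPKM in Nex_cKO, and Snhg18 was between 0.382 and 0.857 FPKM in all 6 libraries. Both overlapped between groups. In the Camk2a model 18 hosts were tested and 0 passed by limma, with 2 at unadjusted p under 0.05, both lincRNA genes with positive differences, and a median of 0.12. Snhg20 had 1.16 and 1.09 FPKM in Camk2a_Ctrl and 2.91 and 1.92 FPKM in Camk2a_cKO (adjusted p = 0.515). Epb41l4aos had 4.33 and 4.47 FPKM in controls and 5.75 and 5.95 FPKM in cKO libraries (adjusted p = 0.605). Mir9-3hg, a host of the neural microRNA miR-9, had 4.55 and 6.01 FPKM in controls and 6.31 and 8.18 FPKM in cKO libraries (adjusted p = 0.753). Snhg10 and Snhg12 overlapped between the groups.

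None of the 3 nuclear lincRNAs of the list passed where tested (2 of them at 2.5 months, all 3 at 3 months with a median log2 change of 0.43). Miat (Gomafu), a nuclear RNA of neurons that binds splicing factors, had 42.4, 51.1 and 44.8 FPKM in Nex_Ctrl and 48.6, 47.2 and 46.4 FPKM in Nex_cKO (log2 change 0.04, adjusted p = 0.793). Its second row had 25.1, 28.3 and 30.2 FPKM in Nex_Ctrl and 23.4, 26.8 and 27.0 FPKM in Nex_cKO, which overlap. With the rows summed the log2 change was -0.01 (limma, adjusted p = 0.94). At 3 months Miat had 9.19 and 7.18 FPKM in Camk2a_Ctrl and 17.005 and 9.52 FPKM in Camk2a_cKO. The Camk2a groups did not overlap, and Camk2a_cKO replicate 1 gave most of the difference (log2 change 0.64, adjusted p = 0.757). Malat1, an abundant RNA of nuclear speckles, had 22.1 and 16.1 FPKM in Camk2a_Ctrl and 20.3 and 17.96 FPKM in Camk2a_cKO, and overlapped. In the 2.5-month table the signal of Malat1 stood in a row joined with Neat1, with 149, 163 and 121 FPKM in controls and 156, 167 and 200.7 FPKM in cKO libraries (log2 change 0.28, adjusted p = 0.249). Neat1, the scaffold of paraspeckles, had 0.375 and 0.368 FPKM in Camk2a_Ctrl and 0.549 and 0.521 FPKM in Camk2a_cKO (adjusted p = 0.879). Its own row in the 2.5-month table had 2.32, 3.04 and 1.46 FPKM in controls and was listed at 0, 4.47 and 3.27 FPKM in cKO libraries. The groups overlapped, and the fitted log2 change (-0.98, SE 1.24, adjusted p = 0.684) has the opposite sign to the difference of the means (Nex_Ctrl 2.28 FPKM, Nex_cKO 2.58 FPKM).

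Of the lincRNAs and related transcripts known from neural development, 8 were tested in the Nex model and 1 rose, Crnde, a processed transcript and not a lincRNA in the table, from 0.1 to 1.44 FPKM (log2 change 2.91, adjusted p = 0.000876). Their median log2 change was -0.09. In the Camk2a model 9 were tested and 0 passed by limma, with 1 at unadjusted p under 0.05 (Dlx1as, an antisense gene with a negative difference) and a median of -0.14. The lincRNA genes among them overlapped between the Camk2a groups: Pantr1 had 6.40 and 5.04 FPKM in Camk2a_Ctrl and 5.27 and 5.03 FPKM in Camk2a_cKO, and C130071C03Rik, a host of miR-9, had 6.34 and 6.43 FPKM against 7.08 and 5.32 FPKM.

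In the Camk2a model 0 of the 513 lincRNA genes passed the threshold by limma, as did 0 of all 16219 genes tested. At an unadjusted p under 0.05 there were 45 genes with higher and 13 with lower values in Camk2a_cKO, 8.77% and 2.53%, beside 3.75% and 3.01% of all genes. limma-voom on reads recovered from the FPKM also called 0 lincRNA genes, and 1 of all genes. The median log2 change of the 513 was 0.15, against -0.002 over all genes, and with the 8 genes that were at 0 in a whole group set to the bound that 3 reads over a group allow it was 0.15 too. Values of both cKO libraries lay above both controls for 138 genes (26.9%) and below for 62 (12.1%), where all genes gave 17.4% and 19.5%. These counts include the 94 genes that the floor admitted through 1 group, which had to differ. Over the other 419, with a mean of at least 0.3 FPKM in both groups, 24.1% lay above and 10.98% below with a median of 0.11, beside 16.4% and 19.5% of the 15370 such genes and a median of -0.01. The counts at unadjusted p include the 94 genes too. Of the 419, 29 had higher and 9 lower values at an unadjusted p under 0.05 by limma (6.92% and 2.15%). The 15370 such genes gave 3.25% and 2.90%.

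Other sets of genes leaned the same way. The median was 0.16 over 425 antisense genes and 0.12 over 198 processed transcripts, which were not matched for level. It was 0.05 over the 2422 protein-coding genes within the middle range of the lincRNA levels, of which 22.7% lay above and 13.8% below. The 257 lincRNA genes within that range had a median of 0.23, with 27.6% above and 10.5% below. The lean was not even over libraries: the median deviation of the 513 genes from their own means was 0.02 and -0.12 in Camk2a_Ctrl replicates 1 and 2 and 0.15 and 0.01 in Camk2a_cKO replicates 1 and 2. The median log2 change of the lincRNA genes was 0.06 without Camk2a_Ctrl replicate 2, 0.09 without Camk2a_cKO replicate 1 and 0.06 with quantile normalization.

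Values for the 4 smallest p in each direction are given without a call. Gm26795 (chromosome 8, 28593505 to 28595599) had 0.416 and 0.338 FPKM in Camk2a_Ctrl and 1.39 and 1.45 FPKM in Camk2a_cKO, from 15, 14, 52 and 51 reads (log2 change 1.68, SE 0.29, adjusted p = 0.464). A830029E22Rik (chromosome 3, 81802025 to 81805161) had 0.243 and 0.593 FPKM in controls and 4.14 and 1.99 FPKM in cKO libraries, from 5, 14, 88 and 40 reads (log2 change 2.61, SE 0.48, adjusted p = 0.496). Both had cKO values clear of the controls. Gm42891 had 0 reads in both controls and 5 and 8 reads in the cKO libraries (adjusted p = 0.445), and Gm2379 had 0 reads in both controls and 6 and 10 in the cKO libraries (adjusted p = 0.496). These 2 rest on few reads and get no fold change. In the other direction 6530411M01Rik had 13 and 15 reads in controls and 1 and 3 in cKO libraries (0.731 and 0.734 FPKM against 0.0544 and 0.173 FPKM, adjusted p = 0.57). Gm39822 had 2.14 and 1.66 FPKM in controls and 1.08 and 0.963 FPKM in cKO libraries (log2 change -0.82, SE 0.22, adjusted p = 0.566). Gm28875 had 0.88 and 0.808 FPKM in controls and 0.331 and 0.3 FPKM in cKO libraries (adjusted p = 0.628). Gm10479 had 2 and 8 reads in controls and 0 in both cKO libraries (adjusted p = 0.505). The groups did not overlap for any of these 8 genes, but the genes were chosen by their smallest p, so this adds no support. Gm42891, Gm2379, Gm10479 and 6530411M01Rik also reached the floor only through the group where they were higher.

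The 17 genes that rose in the Nex model could be followed in the Camk2a model, which shares no library with it. Of the 17, 15 had a positive difference there, 10 lay above the controls in both cKO libraries, 5 had an unadjusted p under 0.05, and their median log2 change was 0.67. Gm14015 and Gm17751, with control means of 0.2499 and 0.254 FPKM, reached the floor there through their cKO values. The same was common among all genes that rose in the Nex model. Of the 432 that both tables allowed to be tested, 80.1% had a positive difference and 50.2% lay above without overlap, with a median of 0.37. An unadjusted p under 0.05 by limma with a positive difference was found for 21.8% of the 432. Of all 11777 genes tested in both, 47.3% were positive, 16.4% lay above, and 2.84% had a positive difference at that p. Of the 83 lincRNA genes not called in the Nex model 37 were positive, with a median of -0.05. Over the 104 genes the changes in the models had a Pearson r of 0.415 and a Spearman rho of 0.302, given as a description, since genes share the libraries.

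D6Ertd474e had the largest positive value of the 17 in the Camk2a model, with 0.278 and 0.343 FPKM in controls and 1.54 and 0.948 FPKM in cKO libraries (log2 change 1.68, SE 0.38). Gm16702 had 1.02 and 0.806 FPKM in controls and 2.19 and 1.82 FPKM in cKO libraries (log2 change 1.06, SE 0.23), and AU023762 had 0.534 and 0.315 FPKM against 1.08 and 0.846 FPKM. All 3 were clear of the controls in both cKO libraries, with adjusted p of 0.496, 0.496 and 0.698. Gm14015 had 0.397 and 0.102 FPKM in controls and 0.996 and 0.618 FPKM in cKO libraries (log2 change 1.48, SE 0.59). Gm19705 (0.485 and 0.39 FPKM against 0.685 and 0.42 FPKM) and 1700007F19Rik overlapped between groups. 2410004I01Rik, with 0.734 and 0.341 FPKM in controls and 0.189 and 0.952 FPKM in cKO libraries, and AI504432 (log2 change -0.08) were the 2 with a negative difference. Of the 4 genes that fell in the Nex model, 4833412C05Rik (0.542 and 0.653 FPKM against 0.282 and 0.384 FPKM) and B230217O12Rik (5.66 and 6.44 FPKM against 4.48 and 4.75 FPKM) lay lower in both Camk2a_cKO libraries, without passing the threshold (adjusted p = 0.829 and 0.675). Gm10635 and Gm16701 overlapped between the Camk2a groups.

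**Figure D4:**
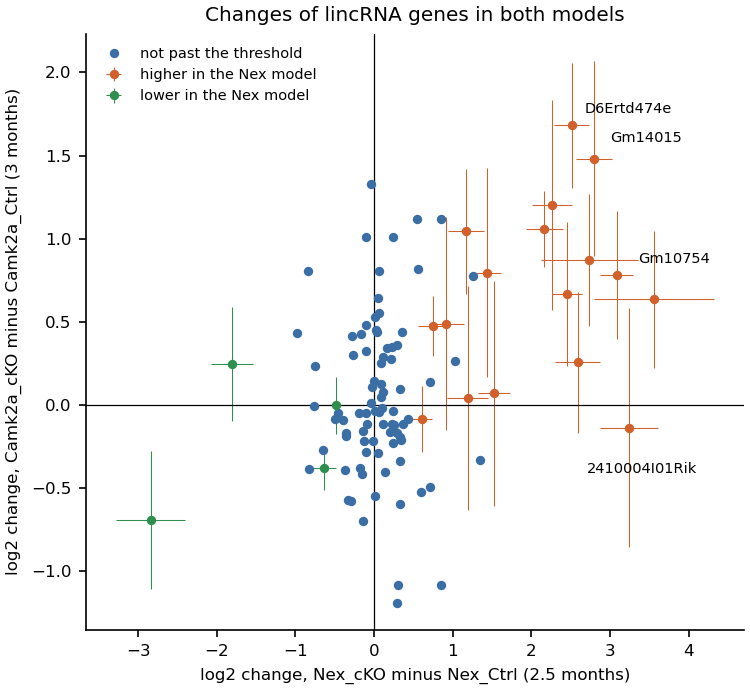
Log2 change at 3 months (Camk2a_cKO minus Camk2a_Ctrl) against that at 2.5 months (Nex_cKO minus Nex_Ctrl) for the 104 lincRNA genes tested in both, with SE bars for the 21 called in the Nex model. Of the 17 orange points 15 lie above 0 on the vertical axis, most of them with a smaller change than on the horizontal axis.

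A test of the difference between the changes asks whether a gene responded unequally in the 2 models, which differ in age, driver, gene models and number of libraries together, and, by Xist and Ddx3y, in the sex of most libraries. Of the 104 lincRNA genes 1 passed with a larger change in the Nex model and 0 with a smaller one, where 0.374% and 0.153% of 11777 genes did. At an unadjusted p under 0.05 there were 14 and 6, where all genes gave 5.34% and 7.97%. That gene was Gm10754, with 0.534 and 0.496 FPKM in Camk2a_Ctrl and 1.31 and 0.692 FPKM in Camk2a_cKO, beside the rise from 0.593 to 5.93 FPKM in the Nex model. The difference of its log2 changes was 2.31 (SE 0.39, adjusted p = 0.0362). It passed without Nex_cKO replicate 2, Nex_cKO replicate 3 or Camk2a_cKO replicate 1. Leaving out a single Nex_Ctrl library raised its adjusted p to 0.0814 (replicate 1), 0.0795 (replicate 2) or 0.0818 (replicate 3), and leaving out Nex_cKO replicate 1 raised it to 0.0665. It was 0.177, 0.0657 and 0.0663 without Camk2a_Ctrl replicate 1, Camk2a_Ctrl replicate 2 and Camk2a_cKO replicate 2. Gm19705 (difference 2.33, adjusted p = 0.054, and called with the rows of a name summed) and Gm10635 (difference -2.05, adjusted p = 0.08) came next to the threshold.

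The position of the genes was not used by the choice. Of the 513, 77 overlap a protein-coding gene, 181 lie within 5 kb of one, 140 lie 5 to 50 kb away and 115 farther, with a median gap of 4608 bases, and 80 start within 2 kb of a coding gene on the other strand that runs away from them. The 17 genes that rose in the Nex model lay on 13 chromosomes, with a median gap of 13581 bases to the nearest coding gene, against 4224 bases for the 83 not called. By distance, 3 of 17 overlapping, 3 of 37 within 5 kb, 8 of 32 at 5 to 50 kb and 3 of 18 beyond 50 kb rose. In the Camk2a model the median log2 change was 0.16, 0.07, 0.18 and 0.23 in the same order of distance.

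Few of the nearest coding genes passed the threshold, whether or not the lincRNA gene did. Of 14 tested neighbours of genes that rose 1 rose and 1 fell, with a median log2 change of -0.04, and of 4 tested neighbours of genes that fell 1 fell. Of 68 tested neighbours of genes not called 2 rose and 2 fell, with a median of -0.02. Over all genes and joined rows 4.98% rose and 3.71% fell. Il17b, a cytokine of the interleukin 17 family 40463 bases from Bvht on the same strand, had 1.36, 0.687 and 0.99 FPKM in Nex_Ctrl and 7.63, 7.30 and 5.84 FPKM in Nex_cKO (log2 change 2.69, SE 0.23, adjusted p = 0.000207), and its call passed in every setting tried. At 3 months Il17b had 0.084 and 0.0731 FPKM in controls and 1.62 and 0.602 FPKM in cKO libraries (adjusted p = 0.498), beside 0.665 and 1.59 FPKM against 1.77 and 2.21 FPKM for Bvht. Both genes of the pair lay above the controls in both Camk2a_cKO libraries.

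Galnt9, which encodes a glycosyltransferase and lies 18375 bases from A630023P12Rik, fell while the lincRNA rose, with 52.8, 49.96 and 50.99 FPKM in controls and 42.2, 39.5 and 30.04 FPKM in cKO libraries (log2 change -0.47, adjusted p = 0.0457). Its call was lost without any 1 control library or Nex_cKO replicate 2 (adjusted p = 0.151, 0.115, 0.136 and 0.0508), and with no filter, median ratio rescaling, quantile normalization or no trend (0.0566 to 0.116). Fam78b, 576 bases from Gm16701 on the other strand, fell with it, with 8.54, 8.28 and 8.87 FPKM in controls and 6.49, 6.93 and 6.38 FPKM in cKO libraries (log2 change -0.37, adjusted p = 0.0367). It lost the call without any 1 library other than Nex_cKO replicate 2 (adjusted p from 0.0544 to 0.149), and with median ratio rescaling (0.0564). Over 86 pairs of a lincRNA gene and its neighbour in the Nex model Pearson r was 0.125 and Spearman rho 0.215, and over 441 pairs in the Camk2a model Pearson r was 0.009, as descriptions over genes that share libraries.

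**Figure D5:**
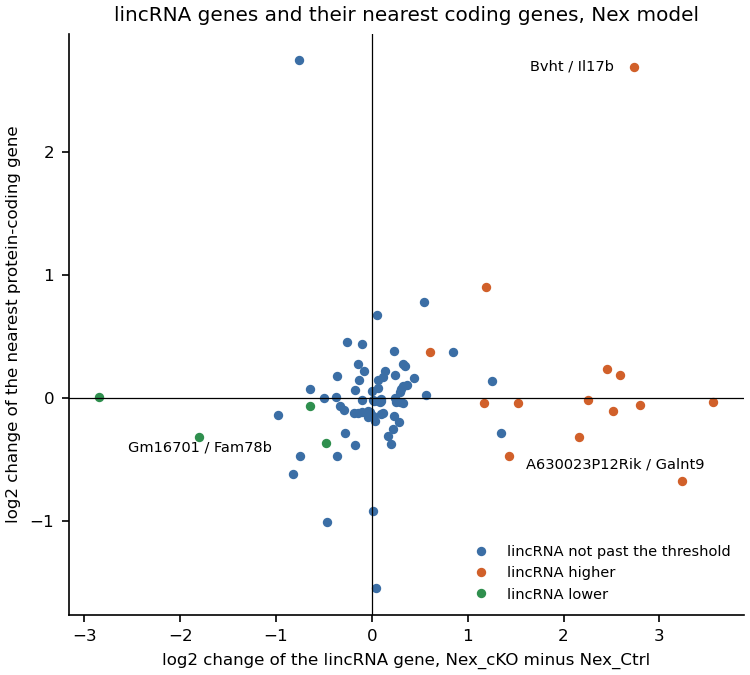
Log2 change of the nearest protein-coding gene against that of the lincRNA gene in the Nex model (Nex_cKO minus Nex_Ctrl), 1 point per pair for the 86 pairs with both tested, coloured by the call of the lincRNA gene. Bvht and Il17b stand together at the upper right, and the other neighbours of higher lincRNA genes lie near or below 1 on the vertical axis.

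Start regions in the RefSeq table were found for 233 of the 513 genes, 138 of them within 100 bases of the start in the deposited table. The 12 windows of genes that rose in the Nex model held a median of 4.5 CpG, and those of the 64 genes tested and not called 13. The 233 windows of the lincRNA genes had a median of 7, as did all 32851 windows. With windows within 100 bases only, the medians were 6 for genes that rose (9 genes), 11 for those not called (51 genes) and 9 for all 138. Of the sequences shown, those of Gm10754, Gm14015 and Gm17751 lie under the median of all windows, and that of Gm16702 (9 CpG), which also rose, lies above it. That of 4833412C05Rik, which starts outside the 100 bases, equals the median of the genes not called. The GC box GGGCGG, on either strand, was in 2 of the 12 windows and in 33 of the 64. Of the 233 windows 30.5% hold it, and of all windows 35.7%. TATAAA was in 0 of the 12 and 8 of the 64 (13.6% of all windows) and CCAAT in 3 of the 12 and 27 of the 64 (37.4% of all windows). These are letter matches in a short window and were not tested.

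Markers of cell types were read beside these values, and their part in the lincRNA changes was not tested. In the Nex model 3 of 10 markers of glutamatergic neurons fell (Neurod6, Tbr1 and Rtn4r) and Neurod2 rose, with a summed level of 3248 to 3504 FPKM in controls and 2599.9 to 2938 FPKM in cKO libraries. Neurod6 is the locus that carries Cre in this model. Whether the controls carried Cre is not known, so its fall cannot be read as that of a cell marker alone. Of 15 oligodendrocyte markers Fa2h and Sox10 fell (1549.5 to 1678 against 1214 to 1452 FPKM), of 10 endothelial markers Cldn5 and Egfl7 fell (112 to 139 against 87.5 to 100.2 FPKM), and of 11 microglial markers Trem2 and Ctss rose (240.02 to 294 against 292 to 334 FPKM). Of 14 GABAergic markers Gad2 rose (1048 to 1192 against 782 to 1204 FPKM) and of 10 astrocyte markers Gfap rose (657 to 719.7 against 691 to 779 FPKM). Choroid plexus and ependymal markers summed to 1.31 to 1.55 FPKM in controls and 2.78 to 5.15 FPKM in cKO libraries, with 2 of 3 tested higher (Kl and Folr1) and Tmem212 listed at 0 in all 6 libraries. Red blood cell markers summed to 6.85 to 16.8 FPKM in controls and 2.91 to 4.15 FPKM in cKO libraries, and Hbb-b2 fell. In the Camk2a model 0 markers passed by limma. Endothelial markers summed to 67.4 to 71.4 FPKM in controls and 78.8 to 90.9 FPKM in cKO libraries, and red blood cell markers to 80.4 to 100.9 and 124.4 to 159.3 FPKM. Astrocyte markers summed to 757 to 782.6 and 790.1 to 804.8 FPKM, and the other 5 sums overlapped between the Camk2a groups.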

How the data were processed

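Somatosensory cortex RNA was sequenced in 10 libraries (3 and 3 at 2.5 months, 2 and 2 at 3 months). The authors deposited FPKM values, 1 table per model. Cutadapt, STAR, DESeq2 and Cufflinks 2.2.1 and the builds mm10 and GRCm38 are listed in the submitters' processing notes, with no role. Roles, strand and the annotation are not given in the sources used here.

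Each table was fitted apart with limma 3.58.1 (R 4.3.3; lmFit, then eBayes with an intensity trend) on log2(FPKM + 0.1) for genes with a mean of at least 0.3 FPKM. Two-sided p-values were adjusted over every gene of the fit (Benjamini-Hochberg), and 0.05 was the threshold. "Rose", "fell", "higher" and "lower" stand for passing it. A pseudocount makes changes of low genes smaller than their ratio. The difference of changes was fitted over genes tested in both tables. Of 29610 rows at 2.5 months, 4463 had no name and were not tested, 1864 repeats of a name gave way to the row of highest mean, and 1078 join several genes. At 3 months FPKM times gene length gave whole reads for 100% of values (tolerance 0.1). These served for depth and for limma-voom. Of the 513 genes, 501 had the same position in GENCODE M21 (GRCm38), and positions are those of the 3-month table.

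Genes were named by a rule. It took up to 8 higher and 8 lower lincRNA genes by log2 change among those past the threshold without overlap (otherwise the 4 of smallest p each way, as values), the 8 of highest level, lincRNA genes in the lists of nuclear RNAs, neural RNAs and small RNA hosts, those at the floor, and up to 4 whose changes differed. A list of 9 H3K36 methyltransferases gave 0 of 4 tested past the threshold in the Nex model and 0 of 7 in the Camk2a model. The genes, lists and rule were chosen with earlier results of these data known. On simulated data of the Nex design (14086 genes), log2 changes of 1 and 2 were recovered for 82% and 95% of the changed genes. The Camk2a design (16219 genes) gave 57% and 78%. There were 18 false calls in the Nex design and 8 in the Camk2a design. The simulated noise was normal, with a spread shared by genes of similar level. Genes with uneven libraries, such as Bvht and Gm1715, were thus not covered. Recovery at the low levels of the lincRNA genes was not tested. Same-numbered libraries did not deviate together, and so no block was used. Alternatives were a pseudocount of 1, a filter of 1 FPKM, no filter, median ratio rescaling, quantile normalization, no trend, each library left out in turn, a replicate block and, chosen after the values were seen, the sum of the rows of a name.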

Additional observations from a re-analysis of the deposited data

Results flagged for a closer look

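Gm10754 had a larger change in the Nex model than in the Camk2a model by a test of the difference itself (limma, difference of log2 changes 2.31, adjusted p = 0.0362). Its mean went from 0.593 to 5.93 FPKM at 2.5 months, higher in 3 of 3 cKO libraries than in any control, and from 0.515 to 0.9996 FPKM at 3 months, higher in 2 of 2. The call was lost on leaving out any 1 of 7 of the 10 libraries (adjusted p from 0.0657 to 0.177). Age, driver, sex of most libraries and gene model differ between the models together, and their parts cannot be told apart.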

How the results depend on the processing

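In the Nex model the number of lincRNA genes that rose was 14 to 18 under the other fits, scalings, filters and row sums, and all 21 called genes kept their direction in every setting, 11 of them also their call. Leaving out each library gave 10 to 15 that rose and 2 to 4 that fell. With a replicate block 14 rose and 2 fell. Same-numbered samples had correlations of 0.04, -0.04 and -0.04 in the Nex model, so no shared deviation was seen. These values cannot show whether the samples were matched in some other way. The block also gave 0 calls in the Camk2a model. The difference between models was the least settled: 5 lincRNA genes passed upward and 1 downward with a pseudocount of 1, 2 upward with no filter, 2 upward with the rows of a name summed, and 0 upward with a filter of 1 FPKM, where Gm10754 was not tested. Leaving out each library gave 0 to 2 upward and 0 to 2 downward. In the Camk2a model 0 lincRNA genes passed under each alternative, limma-voom on recovered reads included, which like the row sums was chosen after seeing the data, and the median log2 change of the 513 genes ranged from 0.06 to 0.22. The planned edgeR test was not run, because the deposited unit is FPKM, and limma-voom on the recovered reads took its place. A lone library left in a group is assumed to vary like the others. Depth limits the 134 genes with under 10 reads per library.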
